A study of Mus musculus with 8 samples.

Results

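The cytochrome P450 family was read as 70 genes among the 18194 that had an Affymetrix probe set of their own, in palate tissue of newborn BALB/c mice. Members are the genes whose symbol in the platform annotation is Cyp, a number, a letter and a number, such as Cyp2e1. Each is represented by the probe set with the highest mean log2(intensity + 16) over the 8 arrays. Pregnant dams had carried an osmotic minipump under the skin that released physiological saline, the control, or 1 of 3 daily nicotine doses, 1.5, 3.0 or 4.5 mg/kg/day, and the pups were born naturally. RNA came from the rear part of the palate on postnatal day 1, with 2 arrays labelled as biological replicates in each of the 4 groups. The labels give 2 pups for the extraction, and whether an array held 1 pup or a pool, or how many litters were sampled, is not stated in the labels. P-values therefore measure only the spread between these samples.

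P450 enzymes are haem proteins that insert an oxygen atom into their substrates, with electrons passed from P450 reductase in the endoplasmic reticulum or from ferredoxin in mitochondria. Enzymes of the Cyp1, Cyp2 and Cyp3 families mostly clear drugs and foreign compounds, nicotine among them. Those of the Cyp4 family and of Cyp2j hydroxylate or epoxidize fatty acids and eicosanoids, and others make steroids and bile acids or activate and break down vitamins A and D. Liver carries most of the drug-clearing enzymes, while gut lining, kidney, lung and skin each carry some of their own.

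Markers of other organs differed between the arrays and are given first, because many P450 genes belong to those organs. The median log2(intensity + 16) of 19 liver genes reached 8.30 (saline replicate 1), 11.50 (saline replicate 2) and 9.87 (nicotine 1.5 replicate 2), while the remaining 5 arrays lay at 4.58 to 4.76. Intestine (14 genes) was at 9.76 and 8.24 in saline against 4.56 to 5.24 with nicotine, and stomach (11 genes) at 7.86 and 8.04 against 4.61 to 4.83. Kidney (11 genes) had 1 high array, saline replicate 2 at 8.35, against 4.50 to 5.24. Lung (10 genes) was at 9.88 in nicotine 1.5 replicate 2, 9.91 and 7.56 at nicotine 3.0 and 6.45 and 6.71 at nicotine 4.5, against 4.61 to 4.81 in the other 3 arrays. The list of palate mesenchyme and face patterning (11 genes) stood at 4.99 to 5.43, with 2 to 4 members in an array above 5.74, the 60th percentile of all probe sets. Skeletal muscle, which the soft palate holds, was at 9.78 to 11.35. Actin probe sets at the 3' and 5' ends of the transcript, whose ratio tracks how intact the RNA is, gave ratios of 1.74 and 1.65 in saline and 0.95 to 1.39 with nicotine. Stomach and intestine genes and the actin ratio set both saline arrays apart from all 6 nicotine arrays, so a change against saline cannot be told apart from these differences. In bulk tissue, fewer cells of a type and less RNA per cell cannot be told apart either.

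**Figure D1:**
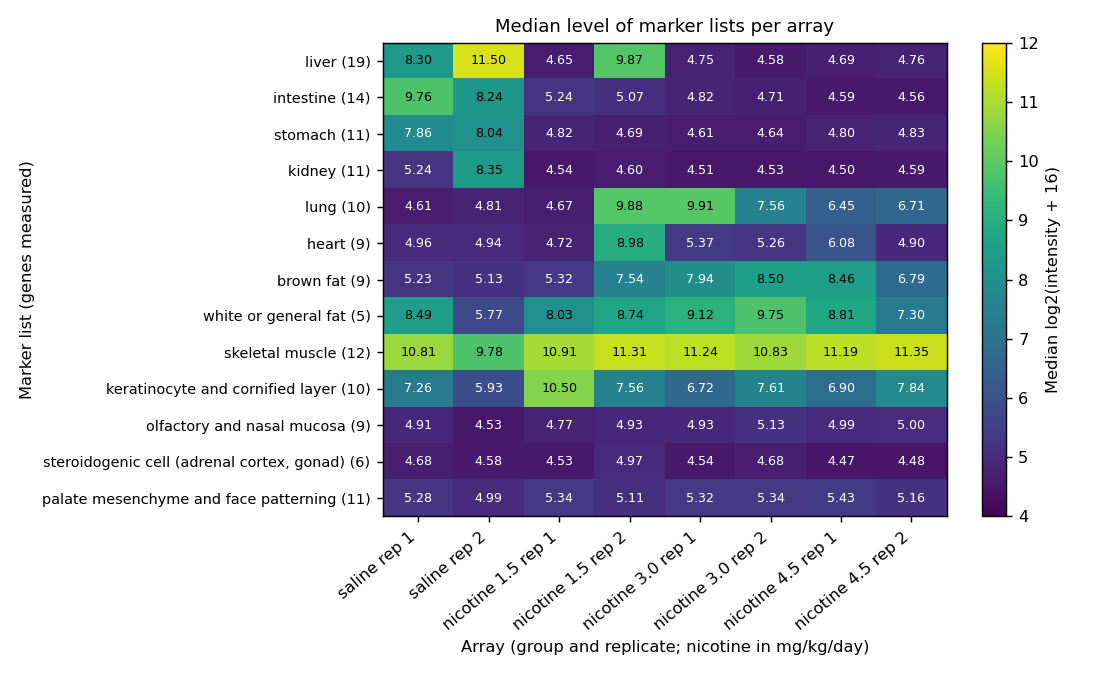
Median log2(intensity + 16) of 13 marker lists (rows, with the number of genes measured) in each of the 8 arrays (columns), after quantile normalization. Liver genes are high in saline replicates 1 and 2 (8.30 and 11.50) and nicotine 1.5 replicate 2 (9.87), and lung genes in 5 of the 6 nicotine arrays (6.45 to 9.91).

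P450 genes varied far more between the arrays than most genes. Of the 70 members, 28 had a range of 2 or more log2 units over the 8 arrays (40%), against 9.62% of all genes with a probe set. The median range was 1.46 for the members and 0.78 for all genes. Saline replicate 2 was the array with the highest level for 19 of these 28 genes, 13 of them in the drug class, 3 in the fatty acid class and 3 in the steroid and bile acid class. It was also the array highest in liver and kidney genes. Counted per array, 35 members stood at or above the 60th percentile in saline replicate 2, 25 in nicotine 1.5 replicate 2 and 24 in saline replicate 1, and 12 to 14 in each of the other 5 arrays. The share of all genes at or above that level was 56.8% to 58.7% in every array. Members below it in all 8 arrays numbered 30 (42.9%, against 31.1% of all genes), and 3 were above it in all 8 (4.29%, against 47.7%): Cyp2j6, Cyp4b1 and Cyp20a1.

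**Figure D2:**
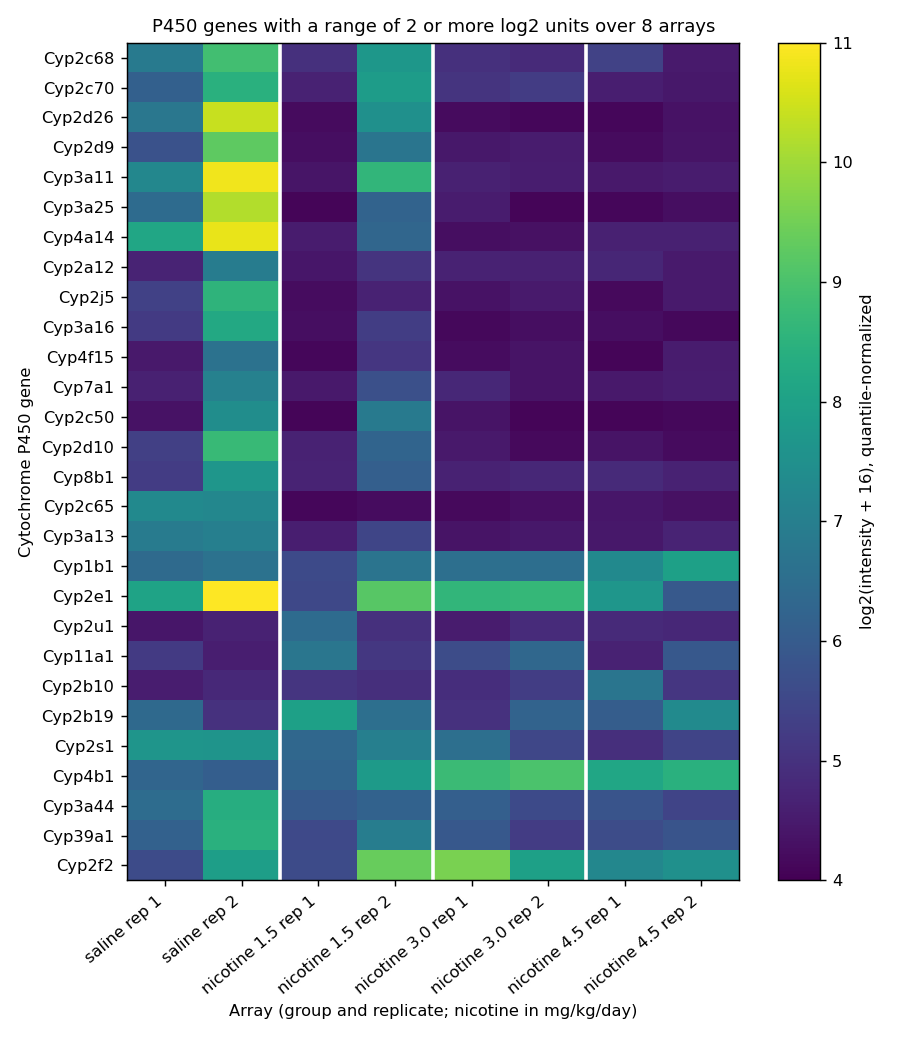
Quantile-normalized log2(intensity + 16) of the 28 P450 genes with a range of 2 or more log2 units (rows) in the 8 arrays (columns), with genes that exceed the 60th percentile in the same arrays placed together. High levels are mostly in both saline columns and the second column of 1.5 mg/kg/day, and 19 of the 28 genes are highest in saline replicate 2.

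Of the members, 43 passed the filter on low levels (a mean log2 level of at least 4.94, the 40th percentile of all probe sets) and were tested together with 13587 genes in all. The limma model used all 8 arrays, and a gene was called changed at a Benjamini-Hochberg adjusted p under 0.05 over all genes tested. With the mean of the 3 nicotine doses against saline, 5 members fell (Cyp2c65, Cyp3a13, Cyp2s1, Cyp4a14 and Cyp4f16) and 1 rose (Cyp4b1), where 5.40% of all genes tested fell and 4.75% rose. In either direction that is 6 of 43 members (14.0%) against 10.2% of all genes. At 1.5 mg/kg/day 3 members changed (2.48% of all genes), all 3 lower (1.75%), and 0 were higher by limma (0.729%). At an unadjusted p under 0.05, 0 members were higher and 10 lower, against 1506 and 1363 of all 13587 genes. At 3.0 mg/kg/day 5 changed (3.73%), 1 higher (1.35%) and 4 lower (2.38%). At 4.5 mg/kg/day 6 changed (6.93%), 1 higher (2.92%) and 5 lower (4.0%), and 2 differed among the 4 groups in the F test (1.97%). The median fold change of the 43 members for the mean of the doses was -0.60 log2 units, with 31 of 43 negative, against 0.07 and 44.0% negative over all genes tested. Without saline replicate 2 the 6 calls for the mean of the doses became 3 and without saline replicate 1 they became 16. Each of these fits rests on 1 saline array, which is assumed to vary like the other groups. Without saline replicate 1 that array is the one highest in liver and kidney genes (11.50 and 8.35). Any fit without an array likewise leaves 1 array in its group. The 3 calls at 1.5 mg/kg/day became 10 without saline replicate 1 and 1 without saline replicate 2 or without any array of nicotine 3.0 or 4.5. The 5 calls at 3.0 became 16 and 3 without saline replicates 1 and 2, 1 without either array of that dose and 2 without either array of 4.5. At 4.5 mg/kg/day the 6 calls became 16 without saline replicate 1, 3 without saline replicate 2 or either array of 3.0, and 1 and 2 without replicates 1 and 2 of that dose.

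Side by side with saline, all 6 nicotine arrays lay below both saline arrays for 10 of 43 members (23.3%, against 12.6% of all genes tested) and above both for 1 of 43, Cyp2b10 (2.33%, against 16.8%). The 10 were the 5 called falls together with Cyp2j5, Cyp2j13, Cyp3a25, Cyp3a44 and Cyp7b1. The members that just passed the level filter were Cyp2b9, Cyp2c54, Cyp2a12 and Cyp46a1 at 4.96, and those just below it were Cyp2u1 at 4.94 and Cyp2c50 at 4.93. Of the 43, 15 reached the filter level in at most 3 arrays, Cyp2c65, Cyp3a13 and Cyp4a14 among them, and passed mainly through those arrays, so the counts over the 43 are a description. The added 16 shrinks the fold of a gene near background, so the size of such a fall depends on the added constant and is uncertain.

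**Figure D3:**
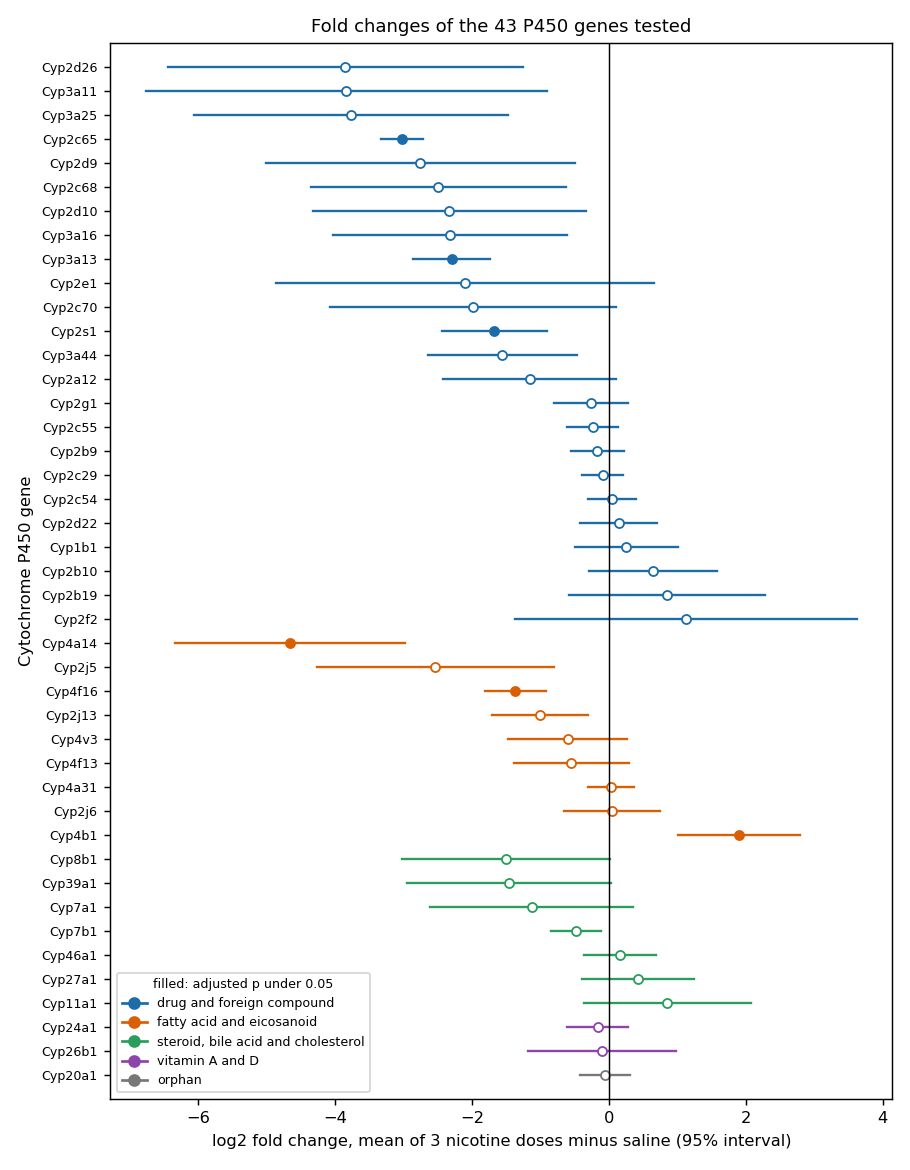
Log2 fold change of the mean of the 3 nicotine doses against saline (points) with its 95% interval (lines) for the 43 P450 genes tested, ordered within 5 classes. Filled points mark the 6 genes with an adjusted p under 0.05, from -4.66 for Cyp4a14 to 1.90 for Cyp4b1, and open points lie on both sides of 0.

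Classes follow the family and subfamily in the symbol alone, so the drug class also holds members with other substrates, such as Cyp2b19. Drug and foreign compound enzymes held 36 of the 70 members, of which 24 were tested. By limma 3 of them fell with the mean of the doses (5.40% of all genes tested). The median was -1.62 over the 24, against 0.07 over all genes tested. No other of them passed, while 11 were lower and none higher at an unadjusted p under 0.05 (1872 lower and 2307 higher of all 13587 genes). Cyp2c65, a Cyp2c enzyme known from the gut lining, had intensities of 156 and 143 in the saline arrays. In the nicotine arrays it stood at 1.35 and 2.64 (1.5 mg/kg/day), 2.31 and 3.48 (3.0) and 5.48 and 3.80 (4.5). The saline arrays were close together and the nicotine arrays were all near the floor of the array, with no overlap. The gene passed the level filter only through the 2 saline arrays, so it had to differ, and with all nicotine values at the floor the size of the fold and its SE follow from the added 16. Its fold change was -3.02 ± 0.13 log2 units (SE; adjusted p = 0.000109) for the mean of the doses and -3.11, -3.05 and -2.91 at the rising doses. Without either saline array the gene fell below the level filter and was not tested, and the call was kept in the 12 alternatives in which it was tested.

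Cyp3a13, a Cyp3a enzyme found in intestine as well as liver, followed the same division. Intensities were 116 and 120 in saline, 7.72 and 30.8 at 1.5 mg/kg/day, 4.65 and 6.16 at 3.0 and 5.54 and 9.50 at 4.5. The highest nicotine array, replicate 2 of 1.5 mg/kg/day, was the one with liver genes. Its fold change was -2.30 ± 0.24 over the 3 doses (adjusted p = 0.00352) and -3.53 with 1 added in place of 16. At single doses it was -1.94, -2.56 and -2.40 (adjusted p = 0.0280, 0.00765 and 0.00804). The call for the mean held in all 15 alternatives in which the gene was tested. The gene reached the filter level in 3 arrays only, both saline arrays and nicotine 1.5 replicate 2, so this count is a description. That at 1.5 mg/kg/day was lost with 1 added, with array weights, and without saline replicate 2 or any array of 3.0 or 4.5 (adjusted p up to 0.0833), that at 3.0 without either array of its dose (up to 0.0859) and that at 4.5 likewise (up to 0.0646).

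Cyp2s1, an epithelial P450 of airway, gut and skin, was lower with nicotine too but had intermediate values in some nicotine arrays. It was at 198 and 191 in saline, 62.1 and 118 at 1.5 mg/kg/day, 76.7 and 27.7 at 3.0 and 13.8 and 25.4 at 4.5. Both saline arrays lay above every nicotine array, and the 4.5 arrays below every other array. The fold change was -1.68 ± 0.32 over the 3 doses (adjusted p = 0.0266) and -2.46 ± 0.40 at 4.5 mg/kg/day (adjusted p = 0.0205), while -0.96 at 1.5 and -1.61 at 3.0 did not pass (adjusted p = 0.227 and 0.0748). The call for the mean was lost with array weights, without either saline array, without nicotine 4.5 replicate 1 and without the 2 arrays highest in liver genes (adjusted p up to 0.108). That at 4.5 was lost with array weights and without saline replicate 2 or either array of the dose (up to 0.113). The intestine list, at 9.76 and 8.24 with saline, stood at 4.59 and 4.56 with the highest dose, and its part in the falls of these 3 genes was not tested.

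A larger group of drug enzymes was high in saline replicate 2, lower in saline replicate 1 and nicotine 1.5 replicate 2, and near background in the other 5 arrays. Cyp3a11, the main drug-clearing Cyp3a of adult mouse liver, had intensities of 147 and 1734 in saline, 4.56 and 379 at 1.5 mg/kg/day and 6.30 to 8.97 in the 4 arrays of the higher doses. Cyp2d26, a liver Cyp2d, was at 105 and 1335, then 2.36 and 172, and at most 4.24 at the higher doses. Cyp3a25 gave 80.2 and 1163, then 1.0 and 63.9, and at most 7.07. Cyp3a16, a Cyp3a of fetal and newborn liver, gave 23.5 and 303, then 3.1 and 24.9, and at most 3.24.

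In all 4 genes the second replicate of saline and of 1.5 mg/kg/day was far above the first. The same order of arrays held for Cyp2c68 (114, 488, 14.8 and 200 in the saline and 1.5 arrays), Cyp2c70 (63.0, 357, 9.14 and 226), Cyp2d9 (43.5, 632, 2.84 and 93.5) and Cyp2d10 (27.6, 437, 9.20 and 65.1). Cyp2c50, which did not pass the level filter, was at 165 and 107 in saline replicate 2 and nicotine 1.5 replicate 2 and at most 4.70 elsewhere. Cyp3a44 was at 82.6 and 330 in saline and 25.7 to 62.1 with nicotine, with no overlap. Its fold of -1.56 did not pass (adjusted p = 0.0742), and it was -2.50 against saline replicate 2 alone. The 8 tested genes before it had fold changes of -3.85 to -1.99 for the mean of the doses, larger than those of Cyp2s1, and none passed (adjusted p from 0.0542 for Cyp3a25 to 0.178 for Cyp2c70). The 95% interval for Cyp3a11 ran from -6.76 to -0.91. Without saline replicate 1, Cyp3a11, Cyp3a16, Cyp3a25, Cyp2d9, Cyp2d10 and Cyp2d26 passed (adjusted p = 0.0490, 0.00422, 0.00920, 0.0211, 0.00996 and 0.0248). Without nicotine 1.5 replicate 2, Cyp2c68, Cyp2d26 and Cyp3a11 did (adjusted p = 0.0329, 0.0403 and 0.0366), and Cyp2c68, Cyp2c70 and Cyp3a11 did without the 2 arrays highest in liver genes (adjusted p = 0.0287, 0.0165 and 0.000950). Liver gene medians, 8.30 and 11.50 in saline and 4.65 and 9.87 at 1.5, followed this order of arrays, and their part was not tested. Cyp2c, Cyp2d and Cyp3a genes are near-identical in stretches, so probe sets may read more than 1 of them and the values of single genes are uncertain.

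RefSeq promoters (build GRCm38.p6, 250 bases before to 50 after the start, written 5' to 3' in the gene's direction) were matched for 51 of the 70 members. They are shown for 2 liver-type and 2 gut-type genes, each with its highest value in a saline array, and for Cyp4b1, the member that rose. Capitals mark every match to TATAAA, the letters of the box bound by the general factor TBP, wherever in the window it falls. They also mark AAAGTCC, the core of the site of HNF4, a factor of liver and gut. Both strands were searched, also for GTTAAT (HNF1 half-site) and TNGCGTG (dioxin response element core), and no marked matches overlap. The regions are chr5:145879805-145880104 (minus strand) for Cyp3a11, chr5:145469674-145469973 (minus) for Cyp3a16, chr19:39060756-39061055 (plus) for Cyp2c65, chr5:137921570-137921869 (minus) for Cyp3a13 and chr4:115647672-115647971 (minus) for Cyp4b1.
Cyp3a11: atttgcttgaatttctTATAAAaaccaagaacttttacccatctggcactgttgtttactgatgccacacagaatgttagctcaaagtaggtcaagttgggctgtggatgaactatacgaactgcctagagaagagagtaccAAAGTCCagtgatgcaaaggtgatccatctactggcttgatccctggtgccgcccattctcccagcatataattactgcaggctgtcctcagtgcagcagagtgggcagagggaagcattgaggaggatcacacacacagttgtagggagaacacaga
Cyp3a16: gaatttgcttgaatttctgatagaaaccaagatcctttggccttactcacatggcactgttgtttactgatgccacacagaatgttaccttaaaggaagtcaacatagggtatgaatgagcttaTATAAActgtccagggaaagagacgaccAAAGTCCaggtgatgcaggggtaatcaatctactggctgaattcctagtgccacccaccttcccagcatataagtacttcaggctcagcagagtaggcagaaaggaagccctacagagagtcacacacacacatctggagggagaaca
Cyp2c65: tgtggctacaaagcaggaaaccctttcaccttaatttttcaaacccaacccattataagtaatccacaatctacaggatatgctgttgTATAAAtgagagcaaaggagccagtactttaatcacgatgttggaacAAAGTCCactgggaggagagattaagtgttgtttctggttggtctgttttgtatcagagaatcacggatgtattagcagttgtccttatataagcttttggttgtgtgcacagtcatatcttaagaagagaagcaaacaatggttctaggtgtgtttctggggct
Cyp3a13: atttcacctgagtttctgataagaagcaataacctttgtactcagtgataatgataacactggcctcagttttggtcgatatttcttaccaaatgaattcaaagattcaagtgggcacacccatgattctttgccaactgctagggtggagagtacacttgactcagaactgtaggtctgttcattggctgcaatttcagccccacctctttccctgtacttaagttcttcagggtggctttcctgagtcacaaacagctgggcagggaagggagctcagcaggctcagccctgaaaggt
Cyp4b1: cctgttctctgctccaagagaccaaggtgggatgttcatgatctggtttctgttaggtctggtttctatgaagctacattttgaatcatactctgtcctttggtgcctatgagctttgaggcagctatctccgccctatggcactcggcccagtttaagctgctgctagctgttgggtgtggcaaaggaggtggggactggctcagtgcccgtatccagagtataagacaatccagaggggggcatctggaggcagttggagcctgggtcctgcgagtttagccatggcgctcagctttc
The AAAGTCC core starts at -108 in Cyp3a11, -98 in Cyp3a16 and -115 in Cyp2c65. The TATAAA matches start further from the start site, at -234, -126 and -162 in the same order, and whether TBP binds there was not tested. None of the 4 motifs is in these windows of Cyp3a13 and Cyp4b1. Over the 58 promoters of members AAAGTCC was in 9 (15.5%), against 4.21% of 32851 promoters in the table, and TATAAA in 21 (36.2%), against 13.6%. GTTAAT was in 3 of the 58 (5.17%, against 7.10%) and TNGCGTG in 1 (1.72%, against 5.07%), that of Cyp2c68. Promoters of gene neighbours in a cluster share sequence, so these counts are not of independent promoters and are a description.

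Hnf4a itself, measured as one of the P450 regulators, fell by 4.62 ± 0.49 log2 units over the 3 doses (limma adjusted p = 0.00390). Its intensities were 696 and 826 in saline, 20.8 and 151 at 1.5 mg/kg/day, 3.02 and 4.32 at 3.0 and 3.21 and 2.24 at 4.5. The arrays at 3.0 and 4.5 were at the floor, and at 1.5 the array with liver genes was the higher.

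Cyp2e1 and Cyp2f2 were above background at the higher doses too. Cyp2e1, which oxidizes ethanol and is best known from liver, was at 263 and 2460 in saline, 29.7 and 559 at 1.5 mg/kg/day, 389 and 389 at 3.0 and 185 and 42.6 at 4.5. Both arrays at 4.5 lay below both saline arrays, the other doses overlapped with saline, and the fold of -2.10 for the mean of the doses had an interval from -4.86 to 0.65 (adjusted p = 0.262). In the 3.0 arrays, where liver genes stood at 4.75 and 4.58, Cyp2e1 was higher than in saline replicate 1, where they stood at 8.30. Cyp2f2, an enzyme of the club cells of the airways, was at 37.6 and 237 in saline, 31.9 and 642 at 1.5, 805 and 236 at 3.0 and 130 and 157 at 4.5. The 2 highest arrays were the 2 highest in lung genes (9.88 and 9.91), where Scgb1a1, a secreted protein of the same cells, was at 2536 and 3253. In saline replicate 2, however, Scgb1a1 was at 6.26 while Cyp2f2 was at 237. That array had the highest median of liver genes (11.50), and their part in the level of Cyp2f2 was not tested. The fold of 1.13 did not pass (adjusted p = 0.494), and without saline replicate 1 it was -0.02.

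Skin and inducible enzymes showed other orders. Cyp2b19, an arachidonic acid epoxygenase of keratinocytes, was at 220 in nicotine 1.5 replicate 1, 138 in nicotine 4.5 replicate 2 and 15.5 to 82.3 in the other 6 arrays. Keratinocyte genes (10) had their highest medians in the same 2 arrays, 10.50 and 7.84, and their lowest, 5.93, in saline replicate 2, where Cyp2b19 was lowest. Cyp2b10, the classic gene induced by phenobarbital through the receptor CAR, was at 84.8 in nicotine 4.5 replicate 1 while the remaining 7 arrays lay at 8.55 to 21.9. Its other 2 probe sets gave 83.9 and 51.3 in that array and at most 19.1 elsewhere, so 3 probe sets gave the same array. The other array of the dose was at 17.2, and the fold for the mean of the doses was 0.64 (adjusted p = 0.304). Without nicotine 4.5 replicate 2, which leaves the high array alone at its dose, the fold was 0.92.

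Cyp1 enzymes, the textbook targets of the aryl hydrocarbon receptor that tobacco smoke activates, were low apart from Cyp1b1. Cyp1a1 lay between 1.38 and 8.34 in all 8 arrays and Cyp1a2 between 3.39 and 19.7, and neither passed the level filter. Cyp1b1, which also acts on steroids and retinoids in mesenchyme, was at 78.1 and 86.9 in saline, 30.9 and 92.8 at 1.5 mg/kg/day, 76.3 and 72.6 at 3.0 and 139 and 221 at 4.5. Both arrays at 4.5 lay above the other 6, with a fold at that dose of 1.13 (95% interval 0.21 to 2.05) that did not pass (adjusted p = 0.115). The fold for the mean of the doses was 0.25 (95% interval of -0.50 to 1.0, adjusted p = 0.619). A further probe set of Cyp1b1 above the filter had 16.7 and 34.8 at 4.5 against 5.61 to 22.1 elsewhere, so that both arrays did not stand apart there. The receptor genes Ahr (110 to 268) and Arnt (121 to 148) were measured in all arrays and did not pass.

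Nicotine itself is cleared in mice mainly by Cyp2a5, a liver and nasal enzyme, and this gene had no probe set of its own. The probe set it shares with Cyp2a4 read 4.73 and 30.0 in saline, 5.41 and 8.43 at 1.5 mg/kg/day, 3.02 and 7.14 at 3.0 and 2.06 and 8.17 at 4.5. Saline replicate 2 was the highest array, and saline replicate 1 and the nicotine arrays were at the floor. Cyp2a12, a liver enzyme, was at 113 in saline replicate 2 and at most 18.0 elsewhere. Its fold of -1.16 for the mean of the doses did not pass, and it was -2.27 against saline replicate 2 alone. Cyp2g1, an enzyme of the olfactory lining, lay between 8.54 and 43.5, and Omp, the marker protein of olfactory neurons, between 12.9 and 18.2. Cyp2d22, a Cyp2d expressed outside the liver, lay between 35.0 and 69.8, with both extremes in the saline arrays. A further probe set of Cyp2d22 above the filter had its extremes in nicotine arrays, 29.0 in nicotine 3.0 replicate 2 and 87.1 in nicotine 4.5 replicate 2. Of the 12 drug class genes that were not tested, Cyp2c50 and Cyp2c23 (51.5 at its highest) reached the highest intensities.

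**Figure D4:**
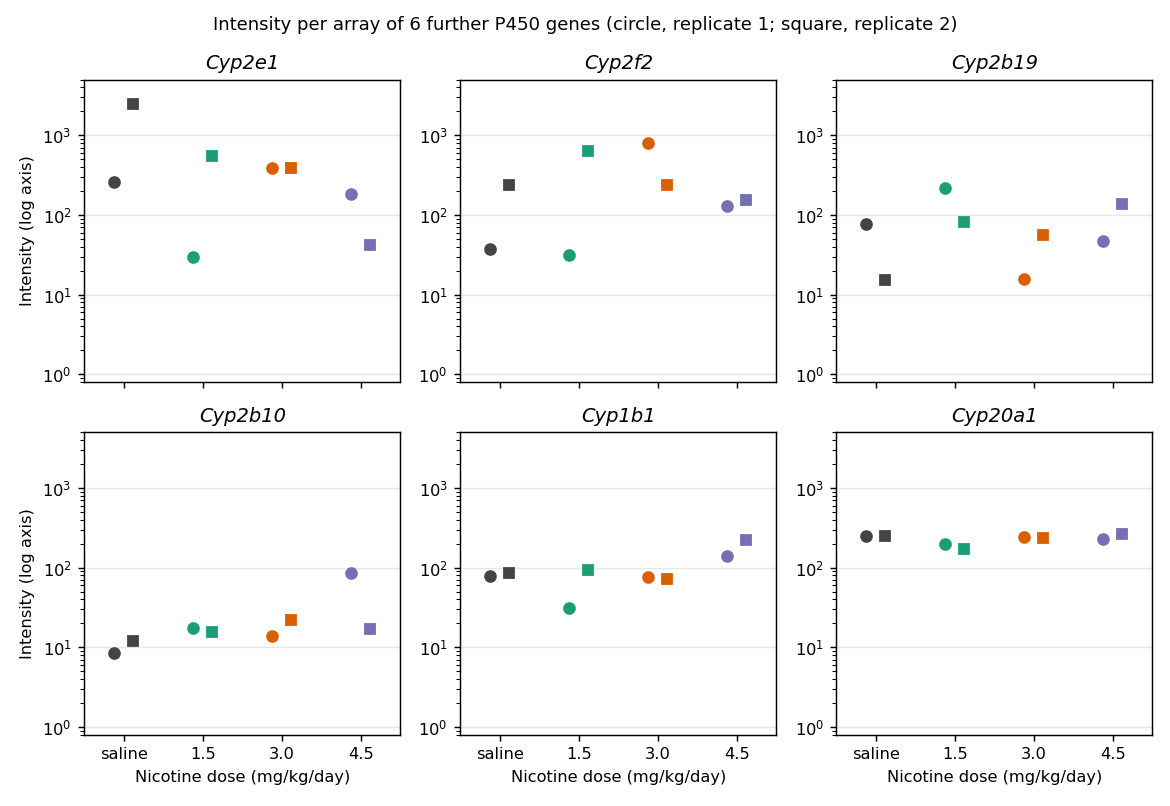
Intensity on a log axis of 6 P450 genes that did not pass the test, by nicotine dose, with circles for replicate 1 and squares for replicate 2. Replicates lie far apart for Cyp2e1 (263 and 2460 in saline) and Cyp2f2, Cyp2b10 is high in 1 array (84.8), and Cyp20a1 is even (170 to 269).

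Fatty acid and eicosanoid enzymes numbered 17, with 9 tested. For the mean of the doses 2 were lower and 1 higher (5.40% and 4.75% of all genes tested). Their median was -0.60, against 0.07 over all genes tested. Cyp4a14, a fatty acid hydroxylase of liver and kidney and a target of the receptor PPAR alpha, had the largest fold change of the tested members. It was at 278 and 1653 in saline, 6.88 and 67.8 at 1.5 mg/kg/day, 3.30 and 4.13 at 3.0 and 8.82 and 8.78 at 4.5. Both saline arrays lay above all nicotine arrays, and the next was nicotine 1.5 replicate 2. The fold change was -4.66 ± 0.71 for the mean of the doses (adjusted p = 0.0137), -5.16 ± 0.87 at 3.0 (adjusted p = 0.0304) and -4.80 ± 0.87 at 4.5 (adjusted p = 0.0281), while -4.03 ± 0.87 at 1.5 did not pass (adjusted p = 0.0649). At 1.5 the fold was -5.36 against saline replicate 2 alone. It was -3.58 without the 2 arrays highest in liver genes, which leaves 1 array on each side. The call for the mean held in 17 of 17 alternatives. The gene reached the filter level in 3 arrays only, both saline arrays and nicotine 1.5 replicate 2, so this count is a description. Those at 3.0 and 4.5 were lost without any array of either dose (adjusted p up to 0.217 and 0.125). Ppara, the gene of the receptor, was at 73.8 and 284 in saline, 56.6 and 303 at 1.5 and 343 to 431 at the higher doses, and did not pass (adjusted p = 0.344).

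**Figure D5:**
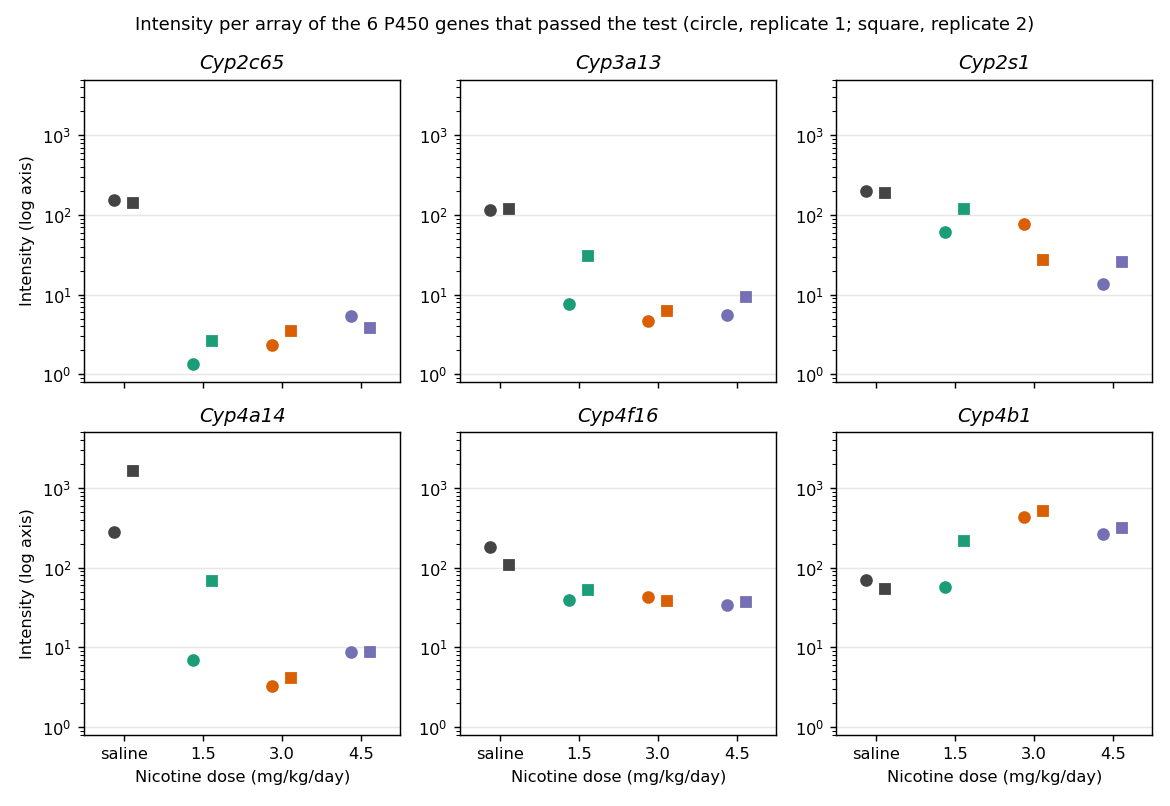
Intensity on a log axis of the 6 P450 genes that passed the test for the mean of the doses, by nicotine dose, with circles for replicate 1 and squares for replicate 2. Both saline arrays lie above all 6 nicotine arrays in 5 genes, and for Cyp4b1 the arrays at 3.0 and 4.5 (264 to 518) lie above the saline arrays (54.4 and 69.6).

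Cyp4f16, of a group that inactivates leukotrienes, was at 180 and 110 in saline and between 34.3 and 52.5 in the 6 nicotine arrays, with no overlap, and both arrays at 4.5 lay below the 4 arrays of the lower doses. It changed by -1.37 ± 0.19 over the 3 doses (adjusted p = 0.0107) and by -1.30, -1.35 and -1.45 at the rising doses (adjusted p = 0.0426, 0.0329 and 0.0201). The first held in 17 of 17 alternatives. Of the single doses, the call at 1.5 was kept in 7 of 17 and lost without any of the 6 nicotine arrays, on the values as deposited, with 1 added and with array weights (adjusted p up to 0.127). Those at 3.0 and 4.5 were lost without any array of these 2 doses (up to 0.238 and 0.103). Its second probe set above the filter had the same direction (-0.51), and the probe set it shares with Cyp4f37 read 49.0 and 55.0 in saline and 12.5 to 22.2 with nicotine.

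Cyp4b1, which hydroxylates short fatty acids and activates toxicants in lung, was the member that rose. Intensities were 69.6 and 54.4 in saline, 58.1 and 215 at 1.5 mg/kg/day, 438 and 518 at 3.0 and 264 and 312 at 4.5. Nicotine 1.5 replicate 1 lay between the saline arrays and the other 5 nicotine arrays above them. The fold change was 1.90 ± 0.38 for the mean of the doses (adjusted p = 0.0286), 2.72 ± 0.46 at 3.0 (adjusted p = 0.0312) and 2.12 ± 0.46 at 4.5 (adjusted p = 0.0438), and 0.85 ± 0.46 at 1.5 did not pass (adjusted p = 0.336). The call for the mean was lost with array weights (adjusted p = 0.0538) and without either saline array or any array of 3.0 or 4.5 (adjusted p up to 0.110). That at 3.0 was lost without saline replicate 2 or any array of these 2 doses (up to 0.224), and that at 4.5 was kept in 6 of 17 alternatives and lost without either saline array or any array of these 2 doses, on the values as deposited, with 1 added, with no level filter and with array weights (up to 0.146). Brown fat genes (9) had medians of 5.13 to 5.32 in the 3 arrays with low Cyp4b1 and 6.79 to 8.5 in the other 5, and lung genes 4.61 to 4.81 and 6.45 to 9.91. The part of either in the rise was not tested.

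Cyp2j5, an arachidonic acid epoxygenase of kidney, was at 28.1 and 383 in saline and at most 9.68 with nicotine. Its fold of -2.53 did not pass (adjusted p = 0.0702), and it was -4.13 against saline replicate 2 alone. Kidney genes were at 5.24 and 8.35 in those saline arrays. Cyp2j13 was at 24.8 and 67.9 against 6.31 to 14.5. Probe sets of 1 gene disagreed for Cyp2j6: the chosen one lay between 38.7 and 97.1 with its highest value in nicotine 1.5 replicate 1, and the other was at 128 and 64.2 in saline and 16.9 to 35.8 with nicotine. For Cyp4a31 the chosen probe set was flat at 13.6 to 17.6, while the other was at 69.7 in saline replicate 2 and at most 10.2 elsewhere. The probe set that Cyp4a31 shares with Cyp4a10, a near copy of Cyp4a14, read 91.2 and 1328 in saline, 4.74 and 45.1 at 1.5 mg/kg/day and at most 15.8 at the higher doses, the order seen for Cyp4a14. Cyp4f15, below the level filter, was at 88.3 in saline replicate 2 and at most 19.5 elsewhere. Cyp2u1 had 1 high array, nicotine 1.5 replicate 1 (67.8), with 16.1 the next, and its other probe set was at 4.54 in that array. Cyp4v3, a fatty acid hydroxylase, and Cyp4f13 lay between 28.9 and 125 and between 8.60 and 57.4 and did not pass.

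Steroid, bile acid and cholesterol enzymes numbered 11, of which 7 were tested. By limma 0 of the 7 passed for the mean of the doses (10.2% of all genes tested). At an unadjusted p under 0.05, 1 was lower, Cyp7b1 (1872 lower and 2307 higher of all 13587 genes). Cyp7a1, the rate-limiting enzyme of bile acid synthesis, was at 9.86 and 126 in saline, 5.95 and 39.3 at 1.5 mg/kg/day and 4.93 to 11.4 at the higher doses. Cyp8b1, which sets the share of cholic acid, gave 24.9 and 200, then 9.68 and 58.3, and 9.06 to 11.9. Cyp39a1, an oxysterol hydroxylase, gave 63.7 and 356, then 30.1 and 113, and 21.0 to 43.4. All 3 were highest in saline replicate 2 and next in nicotine 1.5 replicate 2, while saline replicate 1 stood above the remaining arrays for Cyp8b1 and Cyp39a1 but not for Cyp7a1. They had folds of -1.13, -1.50 and -1.46 (adjusted p from 0.167 to 0.261), and of -2.345, -2.722 and -2.611 against saline replicate 2 alone. Cyp7b1, of the alternative bile acid path, was the steadier gene, with 52.7 and 46.7 in saline and 23.6 to 34.5 in the nicotine arrays, and a fold of -0.48 (interval -0.84 to -0.12, adjusted p = 0.0905). Cyp27a1, a mitochondrial sterol hydroxylase of many tissues, was lowest in saline replicate 1 (38.4) and at 55.9 to 115 in the others.

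Of the genes of steroid hormone synthesis, Cyp11a1 passed the level filter and Cyp11b1, Cyp11b2, Cyp17a1 and Cyp21a1 did not. Cyp11a1, which cuts the side chain of cholesterol, was highest in nicotine 1.5 replicate 1 (86.0) and nicotine 3.0 replicate 2 (62.6) with 7.68 to 41.9 in the remaining 6. Its other 2 probe sets were at most 21.3, and Nr5a1, the factor that defines steroid-making cells, was at 6.37 to 13.2. Cyp11b1, Cyp11b2 and Cyp21a1 of the adrenal cortex stayed at or below 18.1, and Cyp17a1, needed for sex steroids and cortisol-type hormones, reached 29.0 in saline replicate 2 and at most 10.6 elsewhere. Cyp46a1, the cholesterol hydroxylase of neurons, lay between 6.09 and 26.

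Vitamin A and D enzymes numbered 5, of which Cyp24a1 and Cyp26b1 were tested, and neither passed nor had an unadjusted p under 0.05 by limma. Cyp26b1, which clears retinoic acid in developing face and limbs, was at 91.8 and 38.7 in saline, 126 and 35.3 at 1.5 mg/kg/day, 25.3 and 42.6 at 3.0 and 42.1 and 66.6 at 4.5, with groups that overlapped. The fold was -0.10 with an interval from -1.18 to 0.98. Cyp26a1 stayed between 5.51 and 16.4. Cyp24a1, which breaks down vitamin D, was between 9.49 and 22.0, with a second probe set at 37.3 in saline replicate 2. Cyp27b1, which activates vitamin D in kidney, was at 30.4 in that array and at most 15.3 elsewhere, and Cyp2r1, its partner in liver, at most 9.89. Cyp20a1, whose substrate is unknown, was the only orphan and was even, at 251 to 253 in saline and 170 to 269 with nicotine (fold -0.06, interval -0.43 to 0.31).

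Some genes of the family had no probe set of their own in the annotation used here. The reference table holds 92 protein-coding genes that fit the symbol rule, and 23 of them lacked one. Of these, 4 were read together with another gene: Cyp2a4, Cyp2a5, Cyp4a10 and Cyp4f37. Cyp2c40, Cyp2w1, Cyp2t4, Cyp4f17 and Cyp26c1 were among the others and were not analysed here. Cyp2d13, a member by symbol, is a transcribed pseudogene in that table and lay at or below 16.6. Cyp3a41a and Cyp3a41b, whose symbols fall outside the rule, share a probe set that read 119 and 1035 in saline, 3.5 and 140 at 1.5 mg/kg/day and at most 7.50 at the higher doses, the order of Cyp3a11.

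Other genes of the P450 system were counted from 3 lists. Of the regulators, 23 of 26 had a probe set and 19 were tested. For the mean of the doses 2 were higher and 4 lower (4.75% and 5.40% of all genes tested). Beside Hnf4a the falls were Nr1h4, the bile acid receptor, at -2.87 ± 0.29 (adjusted p = 0.00314), Nr5a2, which controls bile acid genes, at -1.89 ± 0.20 (adjusted p = 0.00420) and Foxa1, a factor of gut and airway epithelium, at -2.50 ± 0.41 (adjusted p = 0.0170). Nr1h4 was at 221 and 119 in saline and at most 18.1 with nicotine. This gene passed the level filter mainly through the saline arrays, and it was tested in 15 of 17 alternatives. With nicotine values near background, the size of its fold and its SE depend on the added constant, so its call is a description. The rises were Rxrg, a retinoid X receptor of muscle, at 1.35 ± 0.22 (adjusted p = 0.0177) and Rxrb at 0.62 ± 0.13 (adjusted p = 0.0346). Rxrg did not pass without saline replicate 2, either array of 3.0 or the 2 arrays highest in liver genes (adjusted p up to 0.0794), nor Foxa1 with array weights or without saline replicate 1 or nicotine 4.5 replicate 1 (up to 0.0825), and Rxrb was kept in 6 of 17 alternatives and lost without any array but nicotine 1.5 replicate 1, without the 2 arrays highest in liver genes, on the values as deposited and with array weights (up to 0.111). At 1.5, 3.0 and 4.5 mg/kg/day 3, 3 and 4 regulators fell, and 1 and 2 rose at 3.0 and 4.5. Nr1i2 and Nr1i3, the drug receptors PXR and CAR, did not pass the level filter and were highest in saline replicate 2, at 37.4 and 75.0.

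Of 13 genes of electron supply and haem synthesis 10 were tested, and Pgrmc1, a haem-binding partner of P450 enzymes, fell from 1218 and 1627 in saline to 591 to 675 with nicotine (-1.15 ± 0.16, adjusted p = 0.0113, kept in 17 of 17 alternatives). At 1.5, 3.0 and 4.5 mg/kg/day 1, 2 and 1 of the 10 fell. Alas1, the first enzyme of haem synthesis, reached 1401 in nicotine 4.5 replicate 1, the array highest in Cyp2b10, and was at 141 to 737 elsewhere. It did not pass (1.34, adjusted p = 0.168). Por, the main electron donor, was not analysed here. Among 19 tested genes of neighbouring steps, Cyp51 fell and Ptgis rose for the mean of the doses (5.40% and 4.75% of all genes tested). Cyp51, the P450 of cholesterol synthesis, whose symbol falls outside the member rule, was at 514 and 497 in saline, 196 and 136 at 1.5 mg/kg/day, 168 and 171 at 3.0 and 93.7 and 69.1 at 4.5, in that order without overlap between saline and nicotine (-1.73 ± 0.21, adjusted p = 0.00627, kept in 17 of 17). It was also the 1 of the 19 that fell at each dose. Ptgis, prostacyclin synthase, rose by 0.95 ± 0.23 (adjusted p = 0.0489) and was kept in 4 of 17 alternatives, lost without any array but saline replicate 1, without the 2 arrays highest in liver genes, on the values as deposited, with 1 added, with no level filter and with array weights (up to 0.198).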

How the data were processed

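Palate RNA of 8 mouse samples was hybridized to Affymetrix arrays. The authors deposited 1 linear intensity per array for each of 45101 probe sets. Their summarization, background correction and scaling are unstated in the labels' protocols. Precision is set by 2 arrays a group. Of the probe sets, 34958 named 1 gene and 932 several in the platform annotation. Array medians lay between 20.7 and 25.4 and differed by 0.17 on the log2(intensity + 16) scale, so arrays were quantile-normalized. All 70 members were matched by Entrez ID. Group means were fitted with limma 3.58.1 (R 4.3.3; lmFit and eBayes; residual degrees of freedom 4, total 6.85), with two-sided tests and Benjamini-Hochberg adjustment over 13587 genes. The fit was tested on simulated data. Members and lists were chosen with earlier results of these data known. Genes named are members called in any comparison, members with a range of 2 or more log2 units, a fixed list of further members, and up to 3 genes per other list by p (more where they passed). Alternatives were the normalization, the added constant, the level filter, the choice of probe set, array weights, the replicate number as a block, and leaving out arrays.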

Additional observations from a re-analysis of the deposited data

How the results depend on the processing

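Calls depended on single arrays more than on the processing. Leaving out 1 array gave 1 to 10 members at 1.5 mg/kg/day (3 with all arrays), 1 to 16 at 3.0 (5), 1 to 16 at 4.5 (6), 3 to 16 for the mean of the doses (6) and 1 to 7 for the F test (2). For all genes the ranges were 104 to 905 (337), 54 to 987 (507), 154 to 1354 (941), 353 to 1482 (1380) and 67 to 493 (267). Adding 1 in place of 16 gave 0 members and 156 genes at 1.5, and 0 members and 140 genes in the F test. A filter at the 60th percentile gave 1 member at 1.5, 3 at 3.0 and 0 in the F test. Array weights gave 1 member and 130 genes at 1.5, 441 genes at 4.5 and 621 for the mean. Without the 2 arrays highest in liver genes there were 5 members and 563 genes at 1.5, 897 genes at 3.0, and 7 members and 817 genes in the F test. The direction turned for Cyp4b1 at 1.5 without those 2 arrays (-0.011) and for Cyp2f2 for the mean without saline replicate 1 (-0.023, with 2.27 without saline replicate 2 as the other end), neither of them called. Over 17 settings, 708 of 833 values for single genes kept direction and side of the threshold, and these include uncalled genes that stayed uncalled. A further 101 lost a call, which only results called at first could do, and 22 gained one. The share of calls lost is therefore larger than 101 of 833. Of the calls for the mean over all genes 53.2% were lower, and 72.8% on the values as deposited (346 higher, 926 lower). Same-numbered arrays deviated from their group means with correlations of -0.221 to 0.333 over 6 pairs of groups, the highest for saline with nicotine 1.5. With 2 arrays a group these values cannot decide whether same-numbered arrays share more than a number. The replicate number as a block gave 2, 4, 5, 7 and 2 members and 157, 278, 522, 849 and 147 genes in the 5 comparisons. Under it the calls of Cyp4f16 at 1.5 and 3.0 (adjusted p = 0.0781 and 0.0605) and of Cyp4b1 at 4.5 (0.0518) were lost, and Cyp3a25 passed for the mean (-3.77, adjusted p = 0.0499). Rxrb and Ptgis were lost too. The causes of these changes were not tested. With 2 arrays a group, signal near background limits most of the P450 genes.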
